A study of Rattus norvegicus with 24 samples.

Results

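The immediate early transcription factors Fos, Egr1, Jun, Atf3, Nr4a1 and Myc were followed in the left ventricle of rats after injury to the spinal cord. They were chosen by name as a family, through a list of 7 Ensembl gene IDs. The count table held a row for 6 of the 7, out of 23098 gene IDs in all, and all 6 passed the filter on low counts that left 15065 genes for testing. Junb, the remaining ID of the list, was not analysed here.

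The groups were male Wistar rats 1 day (1D), 3 days (3D) or 12 weeks (12W) after the cord was cut through high in the thoracic region (spinal cord injury, SCI), and SHAM rats, whose dura was opened there with the cord left whole. Each group had 6 libraries, made from the free wall of the left ventricle at mid-ventricular height. SHAM tissue was collected 7 days after surgery, so that no SCI group was matched to it in time. No age and no drug treatment is given in the sources used here, and no label says whether each library is a rat of its own. The p-values therefore describe the spread among libraries, part of which may be technical.

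Immediate early genes code for factors that a cell makes as soon as a signal arrives, without first making other proteins. Mitogen-activated kinases, calcium and cyclic AMP switch them on through factors such as serum response factor and CREB, and their RNAs decay fast. In heart muscle they are known to respond to stretch, to pressure load and to adrenergic stimulation, which the sympathetic nerves supply by way of the thoracic cord.

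Libraries held 41326217 to 62308617 counts at 1D, 16756399 to 48966088 at 3D, 15002476 to 44709028 at 12W and 27097306 to 70340174 in SHAM. By the labels, 3D and SHAM shared a run of library numbers (57 to 68), and 1D and 12W another (77 to 88). Comparisons of 3D with SHAM and of 12W with 1D therefore lay within a run of numbers. For the others the run and the group cannot be told apart. Inside a run each group had its own block of numbers. The blocks were 57 to 62 for 3D, 63 to 68 for SHAM, 77 to 82 for 1D and 83 to 88 for 12W. Block and group therefore cannot be told apart in any comparison. The library that stood furthest apart was 12W replicate 3, whose median correlation with its own group was 0.967, against 0.977 to 0.983 for the other 12W libraries. At 3D, replicate 5 had 0.971, against 0.981 to 0.985 for the rest. The 12W replicate 3 library ranked highest of all 24 for 5 of the 6 members, all but Nr4a1, so that each fold change at 12W against SHAM is also given without it.

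Of the 6 members, 2 were called against SHAM. Nr4a1 fell at all 3 times after transection, by 2.40-fold at 1D, 2.86-fold at 3D and 2.02-fold at 12W, and Myc rose 4.54-fold at 12W. Egr1, Jun, Fos and Atf3 were not called against SHAM at any time by edgeR's quasi-likelihood test with Benjamini-Hochberg adjustment over all tested genes. Levels are in CPM, the count of a gene as a share of its library, scaled with TMM factors, and a gene was called at an adjusted p under 0.05. Against SHAM, 1 of 6 members was called at 1D, 1 at 3D and 2 at 12W, where 24%, 17.5% and 22.1% of all tested genes were called in that order of time. The median size of the members' log2 fold changes was 0.84 at 1D, 0.23 at 3D and 0.74 at 12W, against 0.19, 0.17 and 0.18 over all tested genes. Members also varied within groups more than 78.1% (Jun) to 99.4% (Atf3) of genes, and the part of scatter in these sizes was not tested. Across the 4 groups together, edgeR called Nr4a1 (adjusted p = 0.00021), Myc (adjusted p = 3.53e-05), Egr1 (adjusted p = 0.0293) and Jun (adjusted p = 0.0308), where 48.1% of all genes were called. Fos (adjusted p = 0.196) and Atf3 (adjusted p = 0.0891) were not. This count was 3 in place of 4 with the replicate block and without 1D replicate 3, 4 or 6 or 12W replicate 3 or 4, and 5 without 1D replicate 2 or 3D replicate 2.

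**Figure D1:**
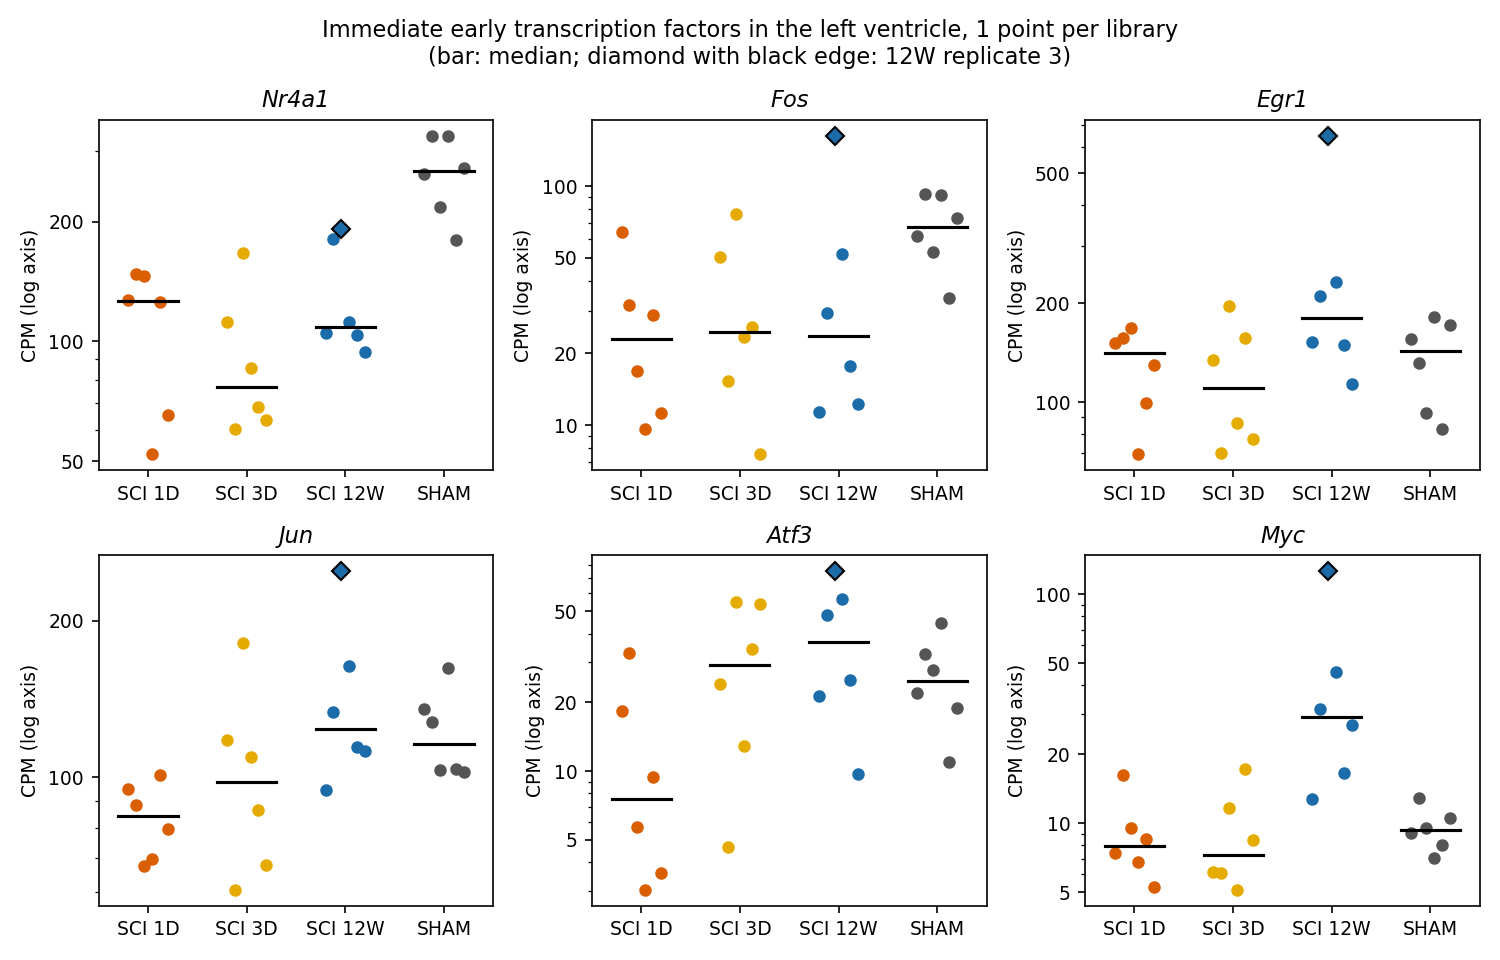
Level of each member in every library, in CPM on a log axis, for SCI at 1D, 3D and 12W and for SHAM, with a bar at the group median. For Nr4a1 all 1D and 3D libraries lie below the lowest SHAM library at 179 CPM, and for Myc the 12W median of 29.1 CPM stands above the SHAM median of 9.31 CPM. The 12W replicate 3 library, drawn as a diamond, is the highest of the 24 in every panel but that of Nr4a1.

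Nr4a1 (ENSRNOG00000007607), also called Nur77, is an orphan nuclear receptor that binds DNA without a known physiological ligand and is a classical target of cyclic AMP signalling. Its lowest, median and highest values were 52.0, 126 and 148 CPM at 1D. At 3D they were 60.2, 76.9 and 167 CPM, and at 12W 93.8, 108 and 192 CPM, against 179, 268 and 329 CPM in SHAM. No 1D or 3D library reached the lowest SHAM library. At 12W, replicates 2 and 3 lay at 180 and 192 CPM, just inside the SHAM range, and the other 4 libraries lay below it.

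The log2 fold change of Nr4a1 against SHAM was -1.26 at 1D (SE 0.271, adjusted p = 0.00146 by edgeR), -1.51 at 3D (SE 0.273, adjusted p = 0.000447) and -1.02 at 12W (SE 0.269, adjusted p = 0.00847), or -1.16 without 12W replicate 3 (adjusted p = 0.00422). All 6 libraries of each SCI group lay below the SHAM mean. The 3D value was measured within the run of library numbers that holds SHAM. Genes called lower made up 12.1% of those tested at 1D, 8.59% at 3D and 10.9% at 12W, and groups that did not overlap, with SCI lower, were seen for 7.95% at 1D and 4.77% at 3D. In order of the mean, Nr4a1 was at 92.7 ± 41.1 CPM at 3D, 110 ± 41.4 at 1D, 131 ± 43.0 at 12W and 265 ± 59.6 in SHAM (SD, n = 6 each). Neighbouring SCI groups in that order were not told apart by edgeR, with adjusted p = 0.687 for 3D against 1D and 0.504 for 12W against 1D. Nor were 12W and 3D (log2 fold change 0.50, adjusted p = 0.162), although that difference was called without 3D replicate 3 (0.75, edgeR adjusted p = 0.0302). The tissue is a mixture of cell types, and fewer cells of a type cannot be told apart from less RNA per cell.

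The promoters of Nr4a1 and Egr1 are shown, since of the 6 members only these had a sequence in the promoter table used. Any link between promoter sites and the levels of these members was not tested. Both promoters are from the RefSeq table of the rat build GRCr8, while the counts were made on mRatBN7.2. The table held 3 of the 7 listed genes, Junb being the other. Each window runs from 250 bases before the start of the gene to 50 after it, 5′ to 3′ on the plus strand, at chr7:134259888-134260187 for Nr4a1 and chr18:26736828-26737127 for Egr1. Capitals mark CGTCA, the core of the cyclic AMP response element that CREB binds, and the CArG box, the sequence that serum response factor binds. Both strands were searched for exact sequences only, the CArG box as CC and GG around a core of A and T alone. Sites with a mismatch were not counted. A CArG box reads as a match on each strand and was counted once, and no CGTCA overlaps a CArG box.
Nr4a1: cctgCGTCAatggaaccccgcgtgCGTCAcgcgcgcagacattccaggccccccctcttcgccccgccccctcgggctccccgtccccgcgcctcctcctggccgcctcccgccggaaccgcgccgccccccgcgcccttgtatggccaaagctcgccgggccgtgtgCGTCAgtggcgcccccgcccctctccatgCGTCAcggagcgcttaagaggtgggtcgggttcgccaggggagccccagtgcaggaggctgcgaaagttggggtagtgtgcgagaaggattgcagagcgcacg
Egr1: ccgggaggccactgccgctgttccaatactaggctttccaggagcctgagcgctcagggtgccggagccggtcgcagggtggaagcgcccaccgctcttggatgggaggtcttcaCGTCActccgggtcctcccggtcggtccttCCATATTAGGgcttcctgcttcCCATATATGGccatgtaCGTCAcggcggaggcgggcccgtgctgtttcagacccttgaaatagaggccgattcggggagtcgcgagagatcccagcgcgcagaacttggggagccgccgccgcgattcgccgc

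The Nr4a1 window held CGTCA 4 times and no exact CArG box. The Egr1 window held CGTCA 2 times and 2 CArG boxes, at -105 to -96 and at -83 to -74 from the gene's start. Of the 33469 promoters in the table, 0.236% held CGTCA at 4 or more places and 4.96% at 2 or more, and 0.0209% (7 promoters) held 2 or more CArG boxes. In exact form, the complete element TGACGTCA and the AP-1 sequence TGACTCA, which pairs of Fos and Jun proteins bind, were in neither window. They were present in 1.83% and 4.63% of all promoters in the table.

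Myc (ENSRNOG00000004500) codes for a helix-loop-helix factor that pairs with Max and drives genes of cell growth and ribosome production, and it is raised in hearts that enlarge. At 1D its lowest, median and highest values were 5.29, 7.98 and 16.3 CPM. At 3D they were 5.13, 7.29 and 17.3 CPM, and at 12W 12.8, 29.1 and 126 CPM, against 7.04, 9.31 and 12.9 CPM in SHAM. The 12W libraries lay above the SHAM range except replicate 1, which at 12.8 CPM lay just under the highest SHAM library.

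The log2 fold change of Myc at 12W was 2.18 against SHAM (SE 0.419, adjusted p = 0.000609 by edgeR), with all 6 libraries above the SHAM mean, in a comparison that called 11.3% of genes higher. Leaving out 12W replicate 3 gave 1.49 (edgeR adjusted p = 0.00139). At 1D and 3D the values were -0.09 (95% interval -0.94 to 0.76, adjusted p = 0.899) and -0.10 (-0.96 to 0.77, adjusted p = 0.905), whose intervals hold changes of either sign. Myc was also higher at 12W than at 1D, by 2.27 on the log2 scale (SE 0.419, adjusted p = 0.000223), within a run of library numbers, and higher than at 3D by 2.28 (SE 0.426, adjusted p = 0.000281). Leaving out that library made these differences 1.58 and 1.59, and both were still called. By its mean, Myc was at 8.98 ± 3.88 CPM at 1D, 9.13 ± 4.65 at 3D and 43.2 ± 42.3 at 12W, against 9.52 ± 2.05 in SHAM (SD, n = 6 each). The 1D, 3D and SHAM means differed by less than their SDs.

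**Figure D2:**
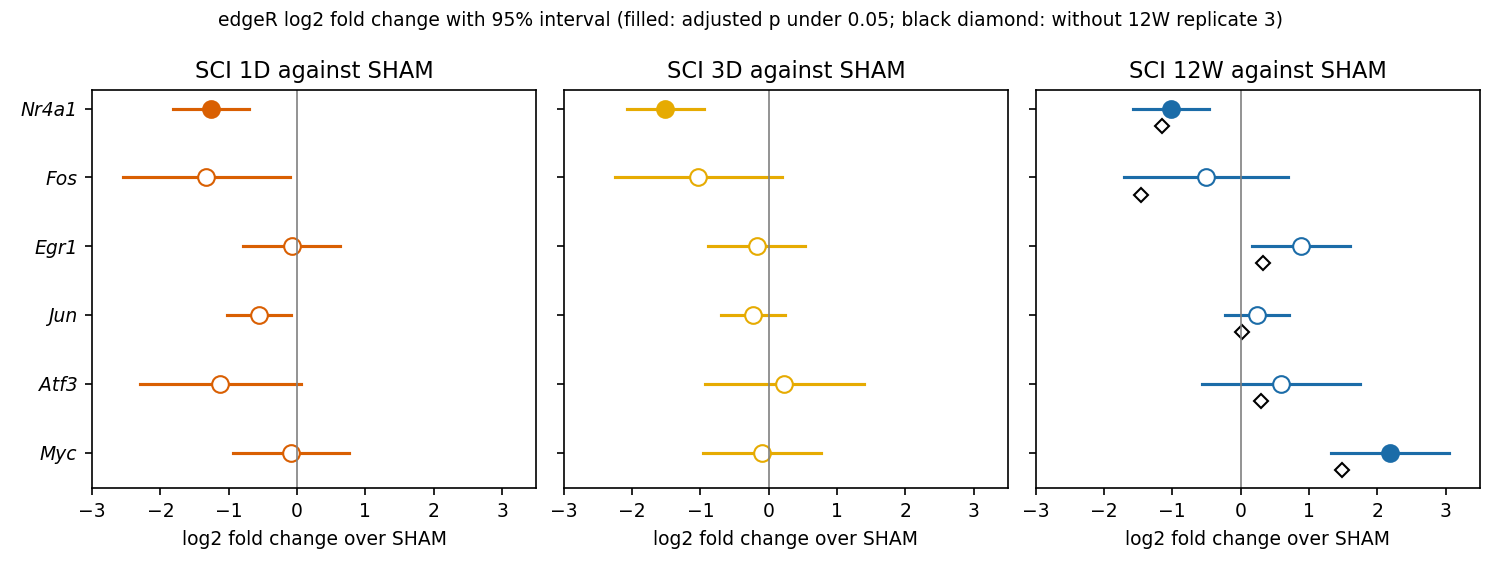
Log2 fold change of each member over SHAM by edgeR at 1D, 3D and 12W, with its 95% interval. Filled points mark the called values, Nr4a1 at every time and Myc at 12W, and black diamonds give the 12W values without 12W replicate 3, which for Fos is -1.46 in place of -0.51.

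Fos (ENSRNOG00000008015) codes for a leucine zipper protein that binds DNA as a pair with Jun, the complex known as AP-1. Its lowest, median and highest values were 9.58, 22.8 and 64.3 CPM at 1D. They were 7.55, 24.6 and 76.7 CPM at 3D and 11.4, 23.5 and 163 CPM at 12W, against 34.0, 67.6 and 93.0 CPM in SHAM. All SCI medians lay below the lowest SHAM library, but some SCI libraries lay within the SHAM range at each time, and 12W replicate 3 lay above it.

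The log2 fold change of Fos was -1.33 at 1D (SE 0.592, adjusted p = 0.105 by edgeR), -1.03 at 3D (SE 0.59, adjusted p = 0.246) and -0.51 at 12W (SE 0.584, adjusted p = 0.574). Below the SHAM mean lay 6 of 6 libraries at 1D, 5 of 6 at 3D and 5 of 6 at 12W. The 1D value was called without 1D replicate 1 (-1.79, edgeR adjusted p = 0.0389) and without 12W replicate 3 (-1.33, adjusted p = 0.0439). It was called as well when only 1D and SHAM were fitted (-1.32, adjusted p = 0.0191) and by limma-voom with sample weights (-1.57, adjusted p = 0.00855). The 12W value was called lower without 12W replicate 3 (-1.46, edgeR adjusted p = 0.0469). By limma-voom Fos was called lower at all 3 times, with log2 fold changes of -1.44 at 3D (adjusted p = 0.0281) and -1.54 at 12W (adjusted p = 0.0238).

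Jun (ENSRNOG00000026293), the partner of Fos in AP-1, spanned a narrower range. Its lowest, median and highest values were 67.3, 84.0 and 101 CPM at 1D, 60.7, 97.8 and 181 CPM at 3D, and 94.5, 124 and 249 CPM at 12W, against 102, 116 and 162 CPM in SHAM. The highest 1D library, at 100.9 CPM, lay just under the lowest SHAM library, at 102.3 CPM, so that these groups did not overlap. The same was seen, with 1D lower, for 7.95% of all tested genes. The log2 fold change at 1D was -0.55 (SE 0.227, adjusted p = 0.0781 by edgeR), which was not called. It was called when only 1D and SHAM were fitted (-0.55, edgeR adjusted p = 0.00426), by limma-voom (-0.55, adjusted p = 0.0318), without 12W replicate 3 (adjusted p = 0.0396) and without 3D replicate 3 (adjusted p = 0.0479). At 3D it was -0.24 (95% interval -0.70 to 0.23, adjusted p = 0.518) and at 12W 0.24 (-0.23 to 0.71, adjusted p = 0.482), or 0.015 without 12W replicate 3 (edgeR adjusted p = 0.972). Between the times, Jun was higher at 12W than at 1D by 0.79 (SE 0.228, adjusted p = 0.00923), with all 6 libraries above the 1D mean, and this held when any of the 24 libraries was left out (0.57 to 0.88).

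Egr1 (ENSRNOG00000019422) codes for a zinc finger factor whose promoter carries the CArG boxes printed above. Its lowest, median and highest values were 69.2, 141 and 168 CPM at 1D, 69.6, 110 and 197 CPM at 3D, and 113, 181 and 651 CPM at 12W, against 82.9, 143 and 182 CPM in SHAM. The ranges overlapped at every time. The log2 fold change was -0.08 at 1D (95% interval -0.79 to 0.64, adjusted p = 0.901), -0.18 at 3D (-0.89 to 0.53, adjusted p = 0.774) and 0.89 at 12W (0.17 to 1.60, adjusted p = 0.068 by edgeR). The 12W value was called without 12W replicate 1 (1.00, adjusted p = 0.0488), replicate 5 (1.00, adjusted p = 0.0493) or replicate 6 (1.04, edgeR adjusted p = 0.0343), and was 0.33 without replicate 3 (adjusted p = 0.403).

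Egr1 was higher at 12W than at 1D by 0.96 (SE 0.347, adjusted p = 0.0345 by edgeR) and than at 3D by 1.07 (SE 0.349, adjusted p = 0.0218). When 12W replicate 3 was left out these were 0.41 (adjusted p = 0.263) and 0.51 (edgeR adjusted p = 0.158). The difference from 1D was also lost without 1D replicate 4 (0.83, adjusted p = 0.0794), replicate 5 (0.90, adjusted p = 0.0715) or replicate 6 (0.96, edgeR adjusted p = 0.0548). The difference from 3D was lost without 3D replicate 2 (0.95, adjusted p = 0.052), replicate 4 (0.99, adjusted p = 0.0507) or replicate 6 (0.97, edgeR adjusted p = 0.053). Limma-voom called neither (0.50, adjusted p = 0.214, and 0.75, adjusted p = 0.0684), nor did fits of only the groups compared by edgeR (0.96, adjusted p = 0.0662, and 1.07, adjusted p = 0.0676). With the replicate number as a block, the difference from 1D was 0.81 and was not called (adjusted p = 0.0654).

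Atf3 (ENSRNOG00000003745) is a stress-induced member of the ATF and CREB family that represses transcription when it pairs with itself. Its SD of log2 CPM pooled over the 4 groups was the largest of the members (1.16, against 1.11 for Fos), although not at 12W. Its lowest, median and highest values were 3.03, 7.53 and 32.8 CPM at 1D, 4.67, 29.2 and 55.1 CPM at 3D, and 9.68, 36.8 and 75.1 CPM at 12W, against 11.01, 24.8 and 44.6 CPM in SHAM. At 1D, 4 libraries lay below the SHAM range and 2 within it. The log2 fold change was -1.12 at 1D (95% interval -2.30 to 0.06, adjusted p = 0.16), 0.23 at 3D (-0.93 to 1.39, adjusted p = 0.827) and 0.59 at 12W (-0.57 to 1.75, adjusted p = 0.487 by edgeR). Without 12W replicate 3 the 12W value was 0.30 (edgeR adjusted p = 0.756). The 1D value was called lower without 1D replicate 2 (-1.72, edgeR adjusted p = 0.0319).

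Atf3 was higher at 12W than at 1D by 1.71 (SE 0.58, adjusted p = 0.0251 by edgeR), with 5 of 6 libraries above the 1D mean. This call was lost, with values of 1.42 to 1.65 and adjusted p of 0.0506 to 0.0675, without 12W replicate 3 or 4 or without 1D replicate 3, 4, 5 or 6, and limma-voom did not make it (1.65, adjusted p = 0.0593). Its 3D value exceeded that at 1D by 1.35 (SE 0.578), which was not called (adjusted p = 0.211).

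Among the SCI groups, 4 of 6 members were higher at 12W than at 1D, in a comparison that called 17.8% of genes higher, and 2 of 6 were higher at 12W than at 3D, where 16% of genes were. In the fit of all libraries the 6 members had positive values in each of these comparisons, where the median over all tested genes was near 0 (0.0042 and 0.0015). Fos turned negative without 12W replicate 3, at -0.13 against 1D and -0.43 against 3D, and was not called. Between 3D and 1D edgeR called no member, where it called 2.74% of genes, and Atf3 was the only member with an unadjusted p under 0.05. DESeq2 and limma-voom also called none between 3D and 1D. With 12W replicate 3 left out, 2 members (Myc and Jun) were called higher at 12W than at 1D and 1 (Myc) higher than at 3D. Jun was called higher at 12W than at 3D only without 3D replicate 3 (0.71, edgeR adjusted p = 0.013), among the alternatives tried.

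Members varied far more between libraries of a group than most genes did. The SD of log2 CPM, pooled over the 4 groups, was 1.16 for Atf3, 1.11 for Fos, 0.74 for Myc, 0.64 for Egr1, 0.51 for Nr4a1 and 0.42 for Jun. It exceeded that of 99.4% of tested genes for Atf3, 99.2% for Fos, 94.2% for Myc, 90.5% for Egr1, 84.5% for Nr4a1 and 78.1% for Jun. The ratio of the highest to the lowest Fos library was 6.71 at 1D, 10.2 at 3D and 14.3 at 12W, against 2.73 in SHAM. Without 12W replicate 3 the 12W ratio was 4.58, under those at 1D and 3D. The median SD of the members was 0.60 at 1D, 0.64 at 3D and 0.99 at 12W, against 0.41 in SHAM, and over all genes the median SD was 0.17, 0.21 and 0.23, against 0.16. Without 12W replicate 3 the median SD of the members at 12W was 0.57, under those at 1D and 3D. The mean absolute deviation from the group median was larger in the SCI group in 16 of 18 comparisons of a member with SHAM. By two-sided exact permutation tests, of which the smallest possible p is 0.00216, none was called over the 18 (lowest p = 0.0628, adjusted p = 0.299).

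**Figure D3:**
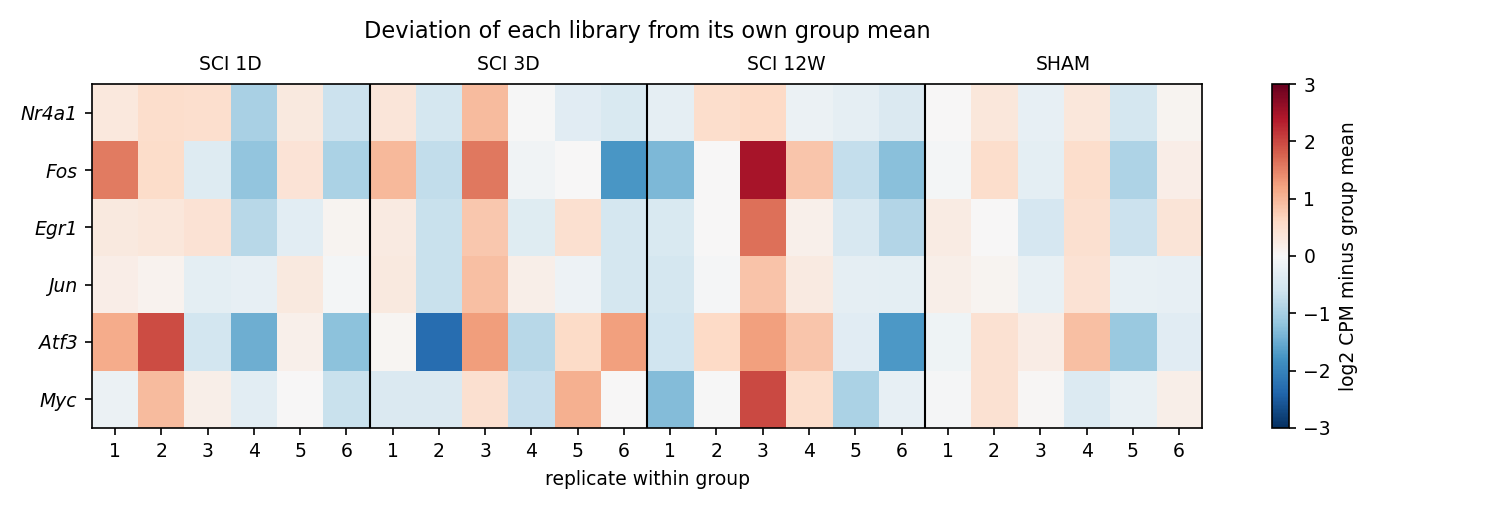
Log2 CPM of each member in each library minus the mean of its own group, for the 6 libraries of each group. Columns tend to be red or blue from top to bottom, as in 12W replicate 3 and 3D replicate 3 (high) and 1D replicate 4 and 3D replicate 2 (low), while 3D replicate 6 is high for Atf3 and low for Fos.

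Taken over the 4 groups, the members tended to vary together from library to library inside a group. With group means removed, all 15 pairs of members had a positive Pearson correlation over the 24 libraries, from 0.44 (Nr4a1 with Myc) to 0.86 (Fos with Jun), with a median of 0.66. By a permutation test that shuffled libraries within groups, all 15 had an adjusted p under 0.05 (0.00015 to 0.043, Benjamini-Hochberg over the 15). The same share over pairs of all genes was not computed, so the counts of pairs here have no background beside them. Spearman's rho ran from 0.32 to 0.84, and 14 of 15 passed the permutation test. The exception was Jun with Myc (adjusted p = 0.18). With the 2 libraries furthest from the median on the x axis left out, r lay between 0.18 and 0.85, and 12 of 15 pairs kept a permutation p under 0.05. Fos with Myc (r = 0.48, permutation p = 0.056), Jun with Myc (r = 0.18, permutation p = 0.502) and Nr4a1 with Myc (r = 0.43, permutation p = 0.0748) did not. The r of Jun with Myc was 0.50 with all libraries, so that this relation rests on those left out, while that of Nr4a1 with Myc hardly moved. Without 12W replicate 3, 11 pairs passed and those of Myc with Fos, Egr1, Jun and Nr4a1 did not.

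Fos and Jun, the partners of AP-1, had r = 0.86 (rho = 0.84, permutation adjusted p = 0.00015 for each), and 0.79 without the 2 furthest libraries. Fos with Egr1 had r = 0.82 (permutation adjusted p = 0.00025) and Egr1 with Nr4a1 r = 0.72 (permutation adjusted p = 0.00036). Inside the groups of 6, given without a test, r of Fos with Nr4a1 was 0.74 at 1D, 0.89 at 3D and 0.75 at 12W, against 0.99 in SHAM. Myc followed the others less evenly. In SHAM its r was -0.34 with Jun, -0.008 with Egr1, 0.04 with Atf3, 0.27 with Nr4a1 and 0.31 with Fos. At 3D it ran from 0.09 with Nr4a1 to 0.67 with Egr1. The median r over the 15 pairs was 0.66 at 1D, 0.62 at 3D and 0.85 at 12W, against 0.63 in SHAM. It was 0.72 at 12W without replicate 3. Atf3 parted from Fos in 3D replicate 6, which had the lowest Fos of all 24 libraries (7.55 CPM) and the fourth highest Atf3 (53.7 CPM). The correlation of this pair was 0.63, and 0.82 without that library. No relation of a member to depth within groups was called. Over 6 relations with log2 total counts, r lay between -0.26 and 0.11, rho between -0.28 and 0.05, and no adjusted permutation p was under 0.646. With the 2 furthest libraries left out, r lay between -0.37 and -0.12, with the lowest permutation p at 0.0609 (Atf3).

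**Figure D4:**
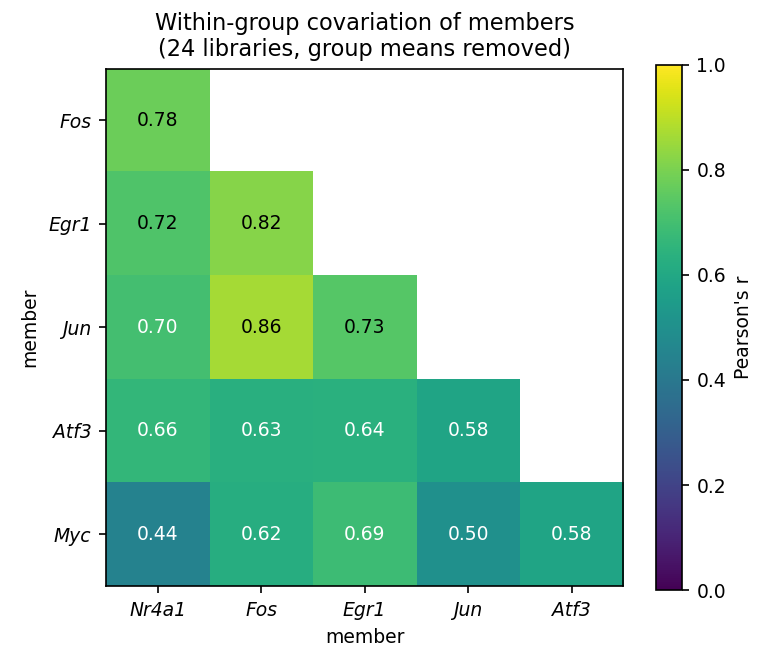
Pearson's r between members over 24 libraries, after the mean of each group was removed from log2 CPM. The 15 values are all positive, highest for Fos with Jun (0.86) and lowest for Nr4a1 with Myc (0.44).

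Although members tended to vary together inside a group, some of their proportions to each other differed between SCI and SHAM. The log2 ratio of 2 members within a library was compared with SHAM by two-sided exact permutation tests over 924 arrangements, adjusted over all 45 tests (15 pairs at 3 times). Such ratios do not depend on how libraries are scaled. Their size is not adjusted for transcript length, so that only the shift between groups can be read. Of the 15 pairs, 5 were called at 1D, 6 at 3D and 11 at 12W. Among the 6 pairs that hold neither Nr4a1 nor Myc, the members called on their own, 1 was called at 1D, 2 at 3D and 3 at 12W. Each of these held Fos. No pair among Egr1, Jun and Atf3 was called at any time (lowest exact permutation adjusted p = 0.0508, Egr1 with Atf3 at 1D). The share of called ratios over pairs of all genes was not computed, so these counts are not set against a background.

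The log2 ratio of Egr1 to Nr4a1 was 0.27 ± 0.44 at 1D, 0.37 ± 0.42 at 3D and 0.73 ± 0.59 at 12W, against -0.99 ± 0.27 in SHAM (SD, n = 6 each). The lowest SCI library, at -0.34, lay above the highest SHAM library, at -0.67, so that no SCI group overlapped SHAM. By exact permutation each shift had p = 0.00216, the least that 6 libraries against 6 can give (adjusted p = 0.00812). Each was called whichever of the 24 libraries was left out, 12W replicate 3 included. The fall of Nr4a1, called from these same libraries, enters each of these shifts, so they are not separate evidence of that fall. Jun also gained on Nr4a1, by 0.79 at 1D (exact permutation adjusted p = 0.0359), 1.27 at 3D and 1.23 at 12W (adjusted p = 0.00812 for each). The 1D shift was called in 15 of 24 fits with a library left out, between 0.65 and 0.95. For Fos against Nr4a1 no shift was called, with log2 ratios of -2.23 at 1D, -1.76 at 3D and -2.11 at 12W, against -2.01 in SHAM (exact permutation adjusted p of 0.685, 0.62 and 0.879).

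The log2 ratio of Fos to Egr1 was -2.50 ± 0.90 at 1D, -2.13 ± 0.76 at 3D and -2.83 ± 0.66 at 12W, against -1.02 ± 0.32 in SHAM (SD, n = 6 each). At 3D and 12W the groups did not overlap SHAM (exact permutation adjusted p = 0.00812 for each), and at 1D only replicate 1, at -1.24, lay within the SHAM range (adjusted p = 0.0195). Fos and Jun, with the closest within-group relation, shifted by -1.02 at 3D (exact permutation adjusted p = 0.0304) and by -1.32 at 12W (adjusted p = 0.0371). The 3D call was lost without SHAM replicate 2, 4 or 6. The 12W call was lost without SHAM replicate 1, 2, 3, 4 or 6 or without 12W replicate 1, 2, 5 or 6. At 12W all 5 ratios that hold Myc were called, with Myc gaining on each other member. The shifts of Egr1 to Myc (-1.08) and Atf3 to Myc (-1.34) were each called in 17 of 24 fits with a library left out, and not without 12W replicate 3. The log2 ratio of Nr4a1 to Myc was 1.98 ± 0.92 at 12W, against 4.79 ± 0.39 in SHAM (SD, n = 6 each). The ratio of Nr4a1 to Myc was lower at 1D and 3D too, at 3.60 ± 0.46 and 3.37 ± 0.84, with no overlap with SHAM at any time.

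**Figure D5:**
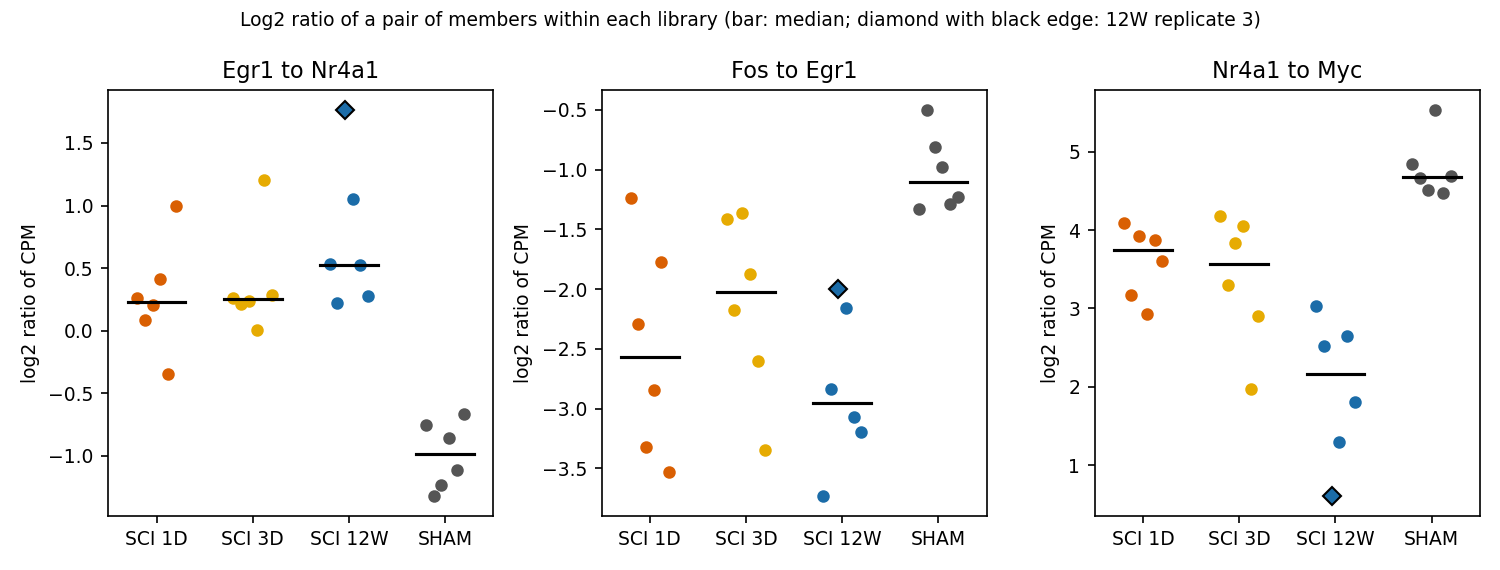
Log2 ratio of CPM of Egr1 to Nr4a1, of Fos to Egr1 and of Nr4a1 to Myc in every library, by group, with a bar at the median. All SCI libraries lie above all SHAM libraries for Egr1 to Nr4a1 and below them for Nr4a1 to Myc, and for Fos to Egr1 only 1D replicate 1 lies within the SHAM range.

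By likeness to the mean of the 6 members, each scaled over the 24 libraries, the nearest genes were ENSRNOG00000003300 (r = 0.932) and ENSRNOG00000014061 (r = 0.916), which the tables used here do not name. The first had a median of 88.3 CPM at 1D, 121 at 3D and 131 at 12W, against 139 in SHAM, and like 5 of the members it was high in 12W replicate 3, at 556 CPM. The other had a median of 10.5 CPM at 1D, 11.2 at 3D and 17.6 at 12W, against 15.5 in SHAM, with a highest 12W library of 62.9 CPM. Both were chosen for their likeness over these same libraries, so their levels are a description, with no test.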

How the data were processed

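The authors deposited unnormalised counts of protein-coding genes in 24 libraries, which were made with FastQC 0.12.1, STAR 2.7.11a and featureCounts 2.0.6 on mRatBN7.2, per the submitters' processing notes. Total RNA was depleted of ribosomal RNA and sequenced from strand-specific paired-end libraries, per the labels' protocols. For the counting, strand setting and annotation release: not given in the sources used here. The table had 26166 lines for 23098 IDs, and repeated lines of an ID were identical and used once. In each library 58.1 to 61.1% of the counts between 1 and 200 were even, so a count may not be an independent fragment.

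Counts were fitted in R 4.3.3 with edgeR 4.0.16 (filterByExpr, TMM, 1 quasi-likelihood model of all 24 libraries by group, contrasts, Benjamini-Hochberg over 15065 genes). Each SE was derived as the size of the log2 fold change over the square root of edgeR's F statistic. Intervals of 95% were built from it with a t distribution, and log2 CPM used a prior count of 2. Replicates were grouped by title. Alternatives used DESeq2 1.42.0, limma 3.58.1 (voom with sample weights), other scalings and filters, a replicate block, and each library left out in turn. Correlations and ratios used 100000 or exact permutations in scipy 1.17.1. The fits were tested on simulated data.

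All members in the rule are named; the genes most like them were the highest by Pearson's r, limited to 2 IDs where no symbols exist. Lists of other immediate early genes, upstream factors, partners and cell type markers were set by symbol and were not run, since no table used here pairs these IDs with symbols; the labelled tissue was therefore not checked against markers. The members and lists were chosen with earlier results of these data known, and the ratios, spread and depth tests after values were seen.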

Additional observations from a re-analysis of the deposited data

Results flagged for a closer look

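In 12W replicate 3 the level stood apart from the other 5 libraries of its group by Dixon's criterion for Egr1 (651 CPM, the others 113 to 232 CPM), for Fos (163 CPM, the others 11.4 to 52.1 CPM) and for Myc (126 CPM, the others 12.8 to 45.5 CPM). These are 3 of 24 groups of values examined, and all 3 come from the same library. The criterion marks about 1 in 20 by chance where values are normally distributed. It was applied to CPM and not to log2 CPM, so that rate may not hold here and the flags may depend on the scale. That library also had the lowest TMM factor (0.879) and the lowest correlation with its own group, and their part in these levels was not tested.

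Levels differed between SCI times by direct test for 4 members. The SHAM libraries are shared, so the contrast of times equals the difference of the log2 fold changes against SHAM. Against 1D, the 12W values were higher by 0.96 for Egr1, 0.79 for Jun, 1.71 for Atf3 and 2.27 for Myc on the log2 scale. Against 3D they were higher by 1.07 for Egr1 and 2.28 for Myc. Without 12W replicate 3, Egr1 was no longer called against 1D or 3D (edgeR adjusted p = 0.263 and 0.158). Nor was Atf3 called against 1D (edgeR adjusted p = 0.0675). Each SCI group has its own time since surgery and SHAM has only 1, so time and injury cannot be told apart.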

How the results depend on the processing

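The falls of Nr4a1 at 1D, 3D and 12W and the rise of Myc at 12W were called under all 34 alternatives to the main fit, with log2 fold changes of -1.36 to -1.12, -1.76 to -1.42, -1.16 to -0.93 and 1.49 to 2.37 in that order. So was Jun at 12W against 1D (0.56 to 0.88). Leaving 12W replicate 3 out lost the calls of Egr1 and Atf3 at 12W against 1D and of Egr1 against 3D. With any 1 library left out, the count of members called lower was 1 to 3 at 1D, 1 to 1 at 3D and 1 to 2 at 12W against SHAM, and the count called higher at 12W was 1 to 2 against SHAM, 2 to 4 against 1D and 1 to 4 against 3D. For 3D against 1D, all genes called numbered 77 to 296 higher and 93 to 357 lower, where the fit of all libraries called 186 and 227. The pairs with a called ratio numbered 3 to 8 at 1D.

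With limma-voom, members called lower against SHAM numbered 3 at 1D, 2 at 3D and 2 at 12W, and those called higher at 12W 2 against 1D and 1 against 3D. For 3D against 1D it called 416 genes higher and 537 lower, and DESeq2 called 367 and 444. With only the groups compared, 3 members were called lower at 1D and 1 higher at 12W than at 3D, and 119 genes were higher and 140 lower at 3D than at 1D. With library totals only, 88 genes were higher at 3D than at 1D. Without 12W replicate 3 and 3D replicate 5, an alternative added after the data were seen, 3 members were called lower at 1D and 2 at 12W against SHAM. Members called higher at 12W then numbered 2 against 1D and 1 against 3D, and genes called at 3D against 1D 415 higher and 568 lower.

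Changes of sign were seen only for values that were not called. For Myc at 3D against 1D (-0.01) they were 0.018 with DESeq2 and 0.0031 with the replicate block. Limma-voom gave -0.39 for Atf3 at 3D against SHAM and -0.10 for Fos at 12W against 3D. With those 2 libraries left out, Fos was at -0.14 (12W against 1D) and -0.49 (12W against 3D). With 1 library left out, Myc ran from -0.34 to 0.025 at 1D and from -0.35 to 0.027 at 3D against SHAM, and from -0.26 to 0.25 at 3D against 1D. Egr1 ran from -0.18 to 0.053 at 1D against SHAM and from -0.30 to 0.013 at 3D against 1D, and Atf3 from -0.018 to 0.46 at 3D against SHAM. Fos ran from -0.14 to 0.76 (3D against 1D), from -0.13 to 1.28 (12W against 1D) and from -0.43 to 0.96 (12W against 3D). The cause of these changes was not tested.

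Replicate numbers did not pair the libraries. Deviations of same-numbered libraries correlated between -0.18 and 0.15, and 3 of 24 libraries correlated best with their own number. With the replicate block, the members called against SHAM numbered 1 at 1D, 1 at 3D and 2 at 12W as without it, and 3 in place of 4 at 12W against 1D. No scaling moved the median of all genes by over 0.1 on the log2 scale.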
